A study of Mus musculus with 4 samples.

Results

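Integrins are adhesion receptors built from an α and a β chain, and a chain reaches the cell surface only as part of such a pair. They let T cells hold on to endothelium, to epithelium and to matrix, so the pairs a lymphocyte can build bear on where it can settle. In barrier tissues such as the lung, the chain CD103 on T cells is a familiar mark of residence near epithelium. The 10 integrin chains described here were taken by gene symbol from a table of 22865 genes: the α chains Itgae, Itgal, Itgav, Itga4, Itga1 and Itga2, and the β chains Itgb7, Itgb2, Itgb3 and Itgb1. All 10 had reads in all 4 libraries, and all 10 passed the filter on low counts.

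The libraries were made from γδ T cells sorted from mouse lung, 500 cells each, 2 from Aire-/- and 2 from Aire+/+ mice. All mice were 10-week-old C57Bl/6 females, and all cells were viable, CD45+, TCRgd+, TCRb-, CD27- and negative for Vg1, Vg2, Vg4 and Vg5, a population the submitters call Tgd17 after its interleukin-17. Aire is the thymic factor through which tissue proteins come to be displayed to developing T cells. The labels do not say how its allele was made, how many animals a library pooled or whether replicates were separate animals. The p-values below therefore rest on library spread alone, which may be technical.

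Total counts were 1144060 and 1106891 in Aire-/- libraries and 1265239 and 1153344 in Aire+/+ libraries. Aire had 0 counts in all 4 and so checked no label. All 12 γδ T cell markers had reads in every library, with a summed level of 7118 and 7885 CPM (read counts scaled to library size, here with TMM factors) in Aire-/- libraries versus 4889 and 6798 CPM in Aire+/+ libraries. Of these sums Cd163l1 alone gave 3891 and 4356 CPM in Aire-/- libraries versus 2604 and 3723 CPM in Aire+/+ libraries. The 12 B cell markers, which the gate should exclude, summed to 3060 and 2350 CPM in Aire-/- libraries versus 4822 and 3026 CPM in Aire+/+ libraries, and none was at 0. B cells also carry Itgal, Itgb2, Itga4, Itgb1 and Itgb7, and their part in the levels below was not tested. The 11 macrophage and monocyte markers other than Ccr2, which T cells share, summed to 120 and 158 CPM in Aire-/- libraries versus 470 and 139 CPM in Aire+/+ libraries. Such cells carry Itgb2 as well, and the part of these markers was not tested either. In such bulk libraries, fewer cells of a type and less RNA per cell cannot be told apart.

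The chains fell into tiers by transcript level. Levels of different genes are given as CPM per kilobase of the longest annotated transcript, as means over the 4 libraries (SD, n = 4). The leukocyte chains Itgb2 (119 ± 22.0), Itgal (108 ± 17.2) and Itgb7 (68.2 ± 9.07) stood highest, Itga4 (42.7 ± 3.53), Itgae (38.4 ± 7.73) and Itgb1 (28.9 ± 11.1) followed, and Itgb3 (13.2 ± 1.84), Itgav (5.72 ± 1.32), Itga2 (1.61 ± 0.847) and Itga1 (1.04 ± 0.390) came last. Ranges over the 4 libraries overlapped between the neighbours Itgb2 and Itgal, Itga4 and Itgae, Itgae and Itgb1, and Itga2 and Itga1, so those places in the order lie within the spread. At each other step the higher chain lay above the lower in all 4 libraries, with no overlap of ranges. With exon union length in place of the longest transcript, Itgae passed Itga4 and no other place changed, but the ranges of Itgal and Itgb7, and of Itgav and Itga2, then overlapped, and those of Itgb2 and Itgal, and of Itga2 and Itga1, did not.

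**Figure D1:**
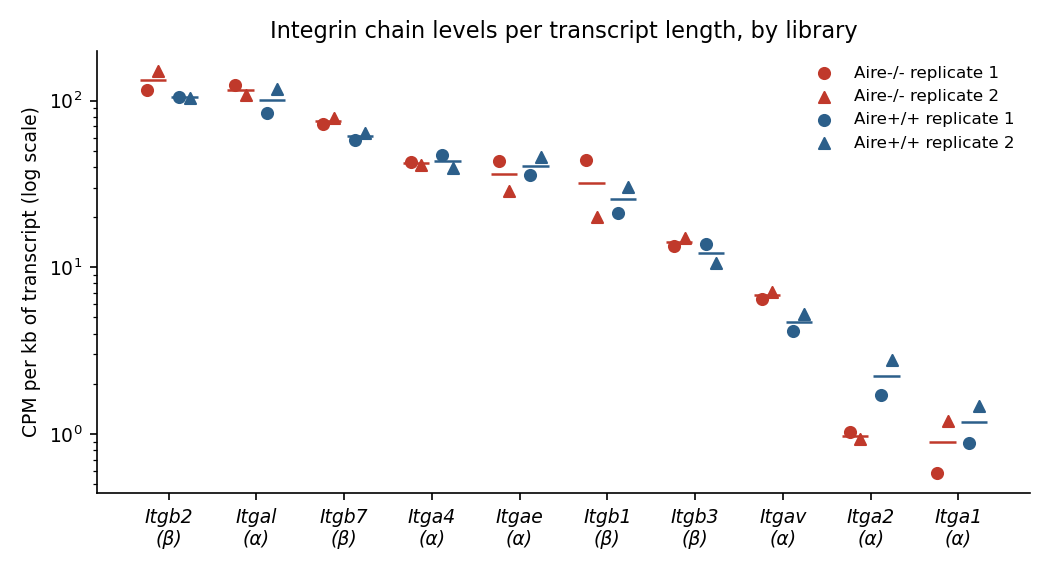
Level of each integrin chain in each library, as CPM per kilobase of transcript on a log axis, with a bar at the mean of each genotype (n = 2). Means over the 4 libraries run from 119 for Itgb2 to 1.04 for Itga1, and the 2 genotypes lie close together beside that span.

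No chain was called different between the genotypes. At an adjusted p under 0.05, edgeR's quasi-likelihood test called 0 of the 10 chains, where 0.0204% of the 9783 genes tested were called. DESeq2 and limma-voom also called 0 chains. In the edgeR fit of all 4 libraries the number of chains at an unadjusted p under 0.05 was also 0, beside 5.57% of all genes tested. Adjusted p ran from 0.91 to 0.99 over the chains. The fitted log2 fold change (Aire-/- minus Aire+/+) was above 0 for 6 chains and below 0 for 4, with a median of 0.21 beside 0.01 over all genes tested. All 12 γδ T cell markers were above 0 (median 0.38) and all 12 B cell markers below 0 (median -0.50). EdgeR called 0 of them with the filter on low counts. With no filter it called Il23r higher (0.86, adjusted p = 0.040). In that fit Cd79a (-0.92, adjusted p = 0.0057) and Faim3 (-0.84, adjusted p = 0.047) were called lower. Over all 20402 genes of that fit, 21 were called higher and 26 lower. Over all genes tested 50.9% were above 0, and the part of either cell type in the chain values was not tested. Aire-/- values lay wholly above Aire+/+ values for 3 chains, Itgb7, Itgb2 and Itgav, and wholly below for 1, Itga2. Over all genes tested, 34.4% had groups that did not overlap (17.1% higher, 17.3% lower). Itga2 passed the filter on low counts through the Aire+/+ libraries alone, so its groups had to lie apart.

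A p that misses the threshold does not show equal levels, and the 95% intervals give the room left. For 6 chains, Itgae, Itgb7, Itgal, Itgb2, Itgb3 and Itga4, the interval lay within a 2-fold change in either direction. Those of Itgav, Itgb1, Itga1 and Itga2 reached past it.

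**Figure D2:**
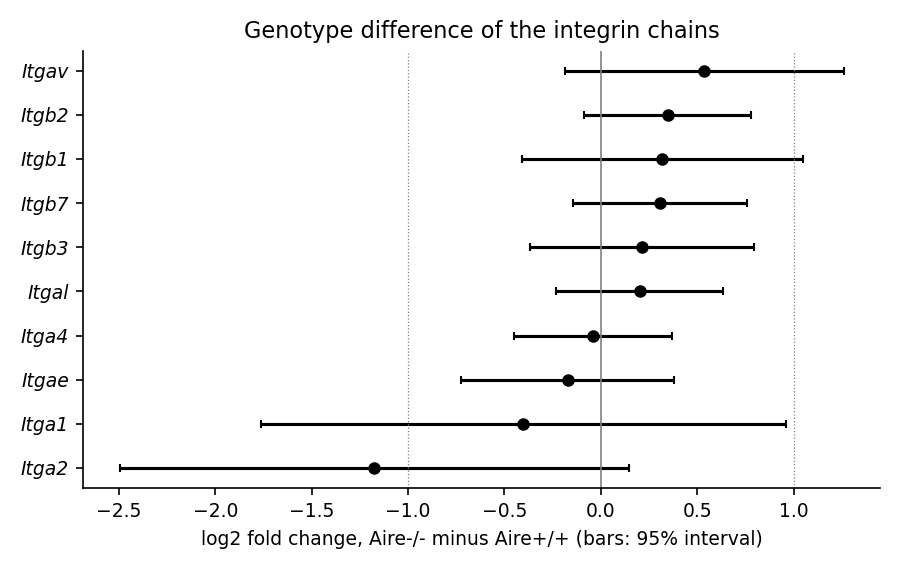
Fitted log2 fold change of each chain (Aire-/- minus Aire+/+, edgeR) with its 95% interval, dotted lines marking a 2-fold change. All 10 intervals include 0, from the narrowest for Itga4 (-0.45 to 0.37) to the broad ones of the sparse chains Itga1 (-1.76 to 0.96) and Itga2 (-2.50 to 0.14).

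Itgal and Itgb2 encode αL and β2, the chains CD11a and CD18 of LFA-1, which binds ICAM proteins on endothelium and on antigen-presenting cells. Itgal (chromosome 7, 127296260 to 127335138, GRCm38) stood at 646 and 564 CPM in Aire-/- libraries, against 440 and 612 CPM in Aire+/+ libraries. Both Aire-/- values lay above the first Aire+/+ value, and the second Aire+/+ value lay between them. The edgeR fit gave 0.20 on the log2 scale (SE 0.20, adjusted p = 0.97), with an interval from -0.23 to 0.64. Without Aire+/+ replicate 1 the value was -0.02, so the sign rested on that library.

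Itgb2 lies on chromosome 10 (77530252 to 77565708), 0.464 Mb from Aire on the same chromosome. It stood at 342 and 448 CPM in Aire-/- libraries, against 312 and 309 CPM in Aire+/+ libraries. The Aire+/+ libraries were nearly equal, and the Aire-/- libraries lay above them at unequal height. The fitted difference of 0.35 on the log2 scale (SE 0.20, edgeR adjusted p = 0.93) was 0.14 without Aire-/- replicate 2 and 0.53 without Aire-/- replicate 1.

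Per length the αL and β2 transcripts lay within 1.71-fold of each other in every library, with either length. The ratio of Itgal to Itgb2 was 1.08 and 0.716 in Aire-/- libraries and 0.803 and 1.13 in Aire+/+ libraries, so it lay on either side of 1 within each genotype. With exon union length all 4 ratios fell below 1, at 0.878 and 0.585 in Aire-/- libraries versus 0.656 and 0.920 in Aire+/+ libraries, so the order of the 2 chains depended on the length used. Together these 2 chains made up 50.9% to 57.3% of the summed CPM per kilobase of all 10 chains. The other α partners of β2 were scarce. Itgam, αM of the myeloid receptor Mac-1, had 28 and 34 counts in Aire-/- libraries versus 32 and 42 counts in Aire+/+ libraries (log2 fold change -0.10, adjusted p = 0.99, edgeR). Itgax, αX of CD11c, had 9 and 5 counts in Aire-/- libraries versus 1 and 3 counts in Aire+/+ libraries, and Itgad, αD, 4 and 2 in Aire-/- libraries versus 0 and 9 in Aire+/+ libraries. Neither was tested.

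Itgae encodes αE (CD103), which pairs with β7 alone and holds lymphocytes to E-cadherin on epithelial cells. Itgae (chromosome 11, 73090583 to 73147446) stood at 167 and 110 CPM in Aire-/- libraries, against 137 and 175 CPM in Aire+/+ libraries. The groups overlapped, and the lowest and second highest values were both from Aire-/- mice. Its log2 fold change of -0.17 (SE 0.25, edgeR adjusted p = 0.98) was 0.09 without Aire-/- replicate 2 and 0.01 without Aire+/+ replicate 2. The gene Haspin, listed as Gsg2, lies inside the Itgae locus on the opposite strand and had 9 to 16 counts per library.

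Itgb7 encodes β7, the shared partner of αE and α4. Itgb7 (chromosome 15, 102215995 to 102231944) stood at 195 and 210 CPM in Aire-/- libraries, against 155 and 172 CPM in Aire+/+ libraries. Replicates of a genotype lay within 1.11-fold of each other, and both Aire-/- values were above both Aire+/+ values. On the log2 scale edgeR put the difference in Itgb7 at 0.31 (SE 0.21, adjusted p = 0.94), with an interval from -0.15 to 0.76. Leaving out single libraries gave 0.23 to 0.38.

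Itga4 encodes α4 (CD49d), which with β7 forms the receptor for MAdCAM-1 on gut endothelium and with β1 forms VLA-4, the receptor for VCAM-1 and fibronectin. Itga4 (chromosome 2, 79255426 to 79333123) stood at 419 and 404 CPM in Aire-/- libraries, against 464 and 382 CPM in Aire+/+ libraries. The Aire-/- values lay between those from Aire+/+ mice. Its log2 fold change was the nearest to 0 of the 10 chains, at -0.04 (SE 0.19, edgeR adjusted p = 0.99), with the narrowest interval, and was 0.10 without Aire+/+ replicate 1. Cerkl, which overlaps the end of Itga4 on the opposite strand, had 16 to 42 counts per library beside 428 to 574 for Itga4.

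The β7 chain was the more abundant transcript beside each of its α partners. The ratio of Itgae to Itgb7 per length was 0.600 and 0.366 in Aire-/- libraries and 0.618 and 0.712 in Aire+/+ libraries, and that of Itga4 to Itgb7 was 0.592 and 0.527 in Aire-/- libraries versus 0.821 and 0.611 in Aire+/+ libraries. Both ratios were lower in the 2 Aire-/- libraries than in the 2 Aire+/+ libraries, without overlap, and no test was made of a ratio. The ratio of Itga2 to Itgb1 was also without overlap, and those of the other pairs overlapped. Itga2 passed the filter on low counts through the Aire+/+ libraries alone. Single genes gave groups without overlap in 34.4% of all genes tested. The 2 ratios to Itgb7 share the Itgb7 values and are not separate observations. The α4 and αE transcripts summed to 86.4 and 70.0 CPM per kilobase in Aire-/- libraries versus 83.2 and 84.8 in Aire+/+ libraries, against 72.5 and 78.4 for Itgb7 in Aire-/- libraries versus 57.8 and 64.1 in Aire+/+ libraries. In Aire-/- replicate 2 β7 was above the sum of its α partners, and in the other 3 libraries below it. With exon union length β7 was above the sum in both Aire-/- libraries (sum over Itgb7 0.947 and 0.698) and below it in both Aire+/+ libraries (1.13 and 1.06).

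**Figure D3:**
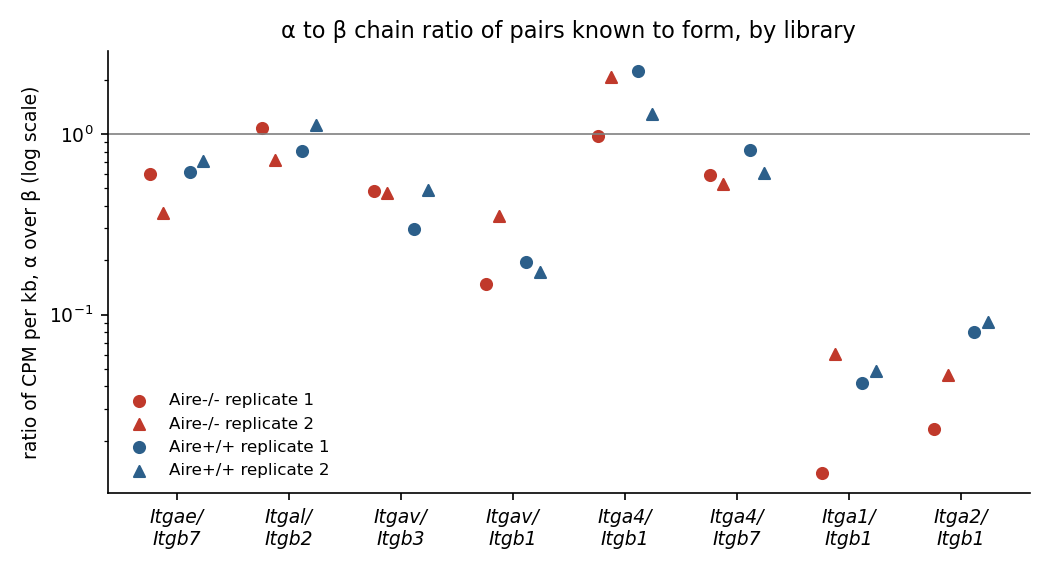
Ratio of the α to the β chain in CPM per kilobase within each library, on a log axis, for the 8 pairs known to form among these chains. With the longest transcript as length, LFA-1 lies about the line at 1, the β7 pairs and αvβ3 below it, and the collagen receptors α1β1 and α2β1 at 0.0132 to 0.0914.

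Itgb1 encodes β1 (CD29), which pairs with more α chains than any other β chain and is used by most cell types. Itgb1 (chromosome 8, 128685654 to 128733200) stood at 168 and 76.4 CPM in Aire-/- libraries, against 80.8 and 116 CPM in Aire+/+ libraries. Its highest and its lowest value came from the 2 Aire-/- libraries, which differed 2.2-fold, more than the 1.25-fold ratio of the genotype means. The fitted log2 fold change of 0.32 (SE 0.34, edgeR adjusted p = 0.97) was -0.35 without Aire-/- replicate 1 and 0.77 without Aire-/- replicate 2. The direction of Itgb1 therefore rested on which Aire-/- library was kept.

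Per length, the ratio of Itga4 to Itgb1 was 0.974 and 2.06 in Aire-/- libraries and 2.24 and 1.29 in Aire+/+ libraries. Both VLA-4 chains were thus present at levels within 2.24-fold of each other in each library. Itga4, Itgav, Itga1 and Itga2, the members that can pair with β1, summed to 51.0 and 50.5 CPM per kilobase in Aire-/- libraries versus 54.2 and 48.6 in Aire+/+ libraries, against 44.1 and 20.0 for Itgb1 in Aire-/- libraries versus 21.2 and 30.3 in Aire+/+ libraries. The sum of these 4 chains was above Itgb1 in all 4 libraries with the longest transcript. Most of it was Itga4, which β7 also takes. With exon union length this sum was below Itgb1 in Aire-/- replicate 1, with 35.6 against 41.2 CPM per kilobase. In the other 3 libraries it was above Itgb1. The sum does not cover α chains outside the 10, among them Itga5, Itga6 and Itga3. Their means over the 4 libraries were 6.45, 4.74 and 2.25 CPM per kilobase of the longest transcript.

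Promoters of 6 of the 10 chains were matched by symbol in RefSeq (build GRCm38.p6). Those of α4 and of the β chains that compete for it are shown, because α4 can take either of those β chains. Each runs from 250 bases before the start site to 50 after it, 5′ to 3′. Capitals mark matches, on either strand, to the RUNX core TGTGGT, the ETS core CGGAAG, the SP/KLF box GGGCGG or the TATA box TATAAA.
Itga4: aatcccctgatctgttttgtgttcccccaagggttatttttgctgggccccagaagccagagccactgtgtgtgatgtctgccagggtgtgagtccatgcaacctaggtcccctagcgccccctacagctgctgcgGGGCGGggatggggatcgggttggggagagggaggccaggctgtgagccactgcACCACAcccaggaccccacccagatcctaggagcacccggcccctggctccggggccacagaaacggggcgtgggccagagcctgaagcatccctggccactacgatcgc
Itgb1: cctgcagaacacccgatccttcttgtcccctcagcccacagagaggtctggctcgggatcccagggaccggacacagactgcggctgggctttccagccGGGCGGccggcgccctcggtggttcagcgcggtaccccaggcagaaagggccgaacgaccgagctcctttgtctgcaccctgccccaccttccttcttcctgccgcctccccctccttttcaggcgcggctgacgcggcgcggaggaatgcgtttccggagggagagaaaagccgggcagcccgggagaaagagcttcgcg
Itgb7: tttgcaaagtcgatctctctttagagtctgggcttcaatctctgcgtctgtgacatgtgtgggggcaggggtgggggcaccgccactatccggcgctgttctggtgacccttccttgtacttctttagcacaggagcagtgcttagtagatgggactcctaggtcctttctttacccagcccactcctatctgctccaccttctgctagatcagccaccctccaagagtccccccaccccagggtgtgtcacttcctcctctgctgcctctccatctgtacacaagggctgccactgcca
Itga4 (chr2:79255176-79255475, plus strand) holds a GGGCGG and, as its reverse complement ACCACA, a RUNX core. Itgb1 (chr8:128685404-128685703, plus strand) holds a GGGCGG, and Itgb7 (chr15:102231886-102232185, minus strand) holds none of the 4 motifs in this window. Over the 6 promoters, GGGCGG stood in 4, the RUNX core in 1, the ETS core in 1 (Itgav) and TATAAA in 0. Of all 32851 RefSeq promoters of this length, 35.7% held GGGCGG, 16.8% the RUNX core, 16.9% the ETS core and 13.6% TATAAA. GC content was 64.3% for Itga4, 67.3% for Itgb1 and 56.3% for Itgb7, beside a median of 52.7% over all. These matches are letters and not binding sites.

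Itgav and Itgb3 encode αv (CD51) and β3 (CD61), which together bind vitronectin, osteopontin and other ligands with an RGD sequence. Itgav (chromosome 2, 83724397 to 83806916) had 50 and 53 counts in Aire-/- libraries, against 36 and 43 counts in Aire+/+ libraries, or 47.8 ± 3.05 CPM in Aire-/- libraries versus 32.9 ± 5.44 CPM in Aire+/+ libraries (SD, n = 2 each). The groups did not overlap, and the ratio of means, 1.45, was above the 1.26-fold difference between the Aire+/+ replicates. The exact Poisson counting intervals, of the kind given for Itga1 below, overlapped between the genotypes. In Aire-/- libraries they were 32.4 to 57.6 and 35.9 to 62.6 CPM. In Aire+/+ libraries they were 19.9 to 39.4 and 27.0 to 50.2 CPM. At 0.54 (SE 0.33, edgeR adjusted p = 0.93) the fitted log2 fold change of Itgav was the largest positive value of the 10 chains, with an interval from -0.18 to 1.26.

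Itgb3 (chromosome 11, 104608000 to 104670476) stood at 77.6 and 86.8 CPM in Aire-/- libraries, against 80.0 and 61.6 CPM in Aire+/+ libraries. The first Aire+/+ value lay between those from Aire-/- mice, and the second was the lowest. Its log2 fold change was 0.21 (SE 0.27, edgeR adjusted p = 0.98).

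β3 exceeded αv per length in every library, with an Itgav to Itgb3 ratio of 0.482 and 0.472 in Aire-/- libraries versus 0.298 and 0.490 in Aire+/+ libraries. β3 has a single other α partner, αIIb, the fibrinogen receptor chain of platelets. Its gene Itga2b had 1 and 3 counts in Aire-/- libraries versus 15 and 4 counts in Aire+/+ libraries. The 7 platelet and megakaryocyte markers summed to 17.4 and 10.4 CPM in Aire-/- libraries versus 44.4 and 12.8 CPM in Aire+/+ libraries, with Gp1bb at 0 in all 4, and their part in Itgb3 was not tested. αv can also take other β chains. Itgb5 had 22 and 17 counts in Aire-/- libraries versus 2 and 15 counts in Aire+/+ libraries (log2 fold change 1.33, SE 0.73, adjusted p = 0.91, edgeR). Itgb6 and Itgb8, which with αv release active TGF-β, had 5 and 4, and 4 and 1, counts in Aire-/- libraries and 1 and 2, and 12 and 0, in Aire+/+ libraries, and were not tested.

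Itga1 and Itga2 encode α1 (CD49a) and α2 (CD49b), which join β1 as collagen receptors. CD49a marks some resident T cells, and CD49b is a marker of mouse natural killer cells. Itga1 (chromosome 13, 114953096 to 115101964) had 7 and 14 counts in Aire-/- libraries, against 12 and 19 counts in Aire+/+ libraries. The groups overlapped, and the counting intervals of the lowest library, 2.46 to 12.6 CPM, and of the highest, 9.92 to 25.7 CPM, overlapped as well (95%, exact Poisson, before TMM scaling, counting error only). In the edgeR fit its log2 fold change was -0.40 (SE 0.63, adjusted p = 0.98), at 0.03 without Aire-/- replicate 1 and 0.01 without Aire+/+ replicate 2.

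Itga2 (chromosome 13, 114833081 to 114932100) had 8 and 7 counts in Aire-/- libraries, against 15 and 23 counts in Aire+/+ libraries. Both Aire-/- values were below both Aire+/+ values. The counting intervals, of the kind given for Itga1, overlapped between the genotypes. In Aire-/- libraries they were 3.02 to 13.8 and 2.54 to 13.0 CPM. In Aire+/+ libraries they were 6.64 to 19.6 and 12.6 to 29.9 CPM. Itga2 passed the filter of 8.71 CPM through the Aire+/+ libraries alone, so among the genes tested a gene of this kind had to differ. Its log2 fold change of -1.18 (SE 0.61, edgeR adjusted p = 0.91) was the largest in size of the 10 chains, with an interval from -2.50 to 0.14, and ran from -1.49 to -0.80 as single libraries were left out. The 8 natural killer cell markers summed to 78.6 and 230 CPM in Aire-/- libraries versus 243 and 159 CPM in Aire+/+ libraries, with Klra4 and Klra8 at 0 in all 4, and their part in Itga2 was not tested. Set against β1, these α chains were rare. The ratio to Itgb1 per length was 0.0132 and 0.0601 for Itga1 in Aire-/- libraries versus 0.0417 and 0.0490 in Aire+/+ libraries, and 0.0233 and 0.0464 for Itga2 in Aire-/- libraries versus 0.0805 and 0.0914 in Aire+/+ libraries.

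**Figure D4:**
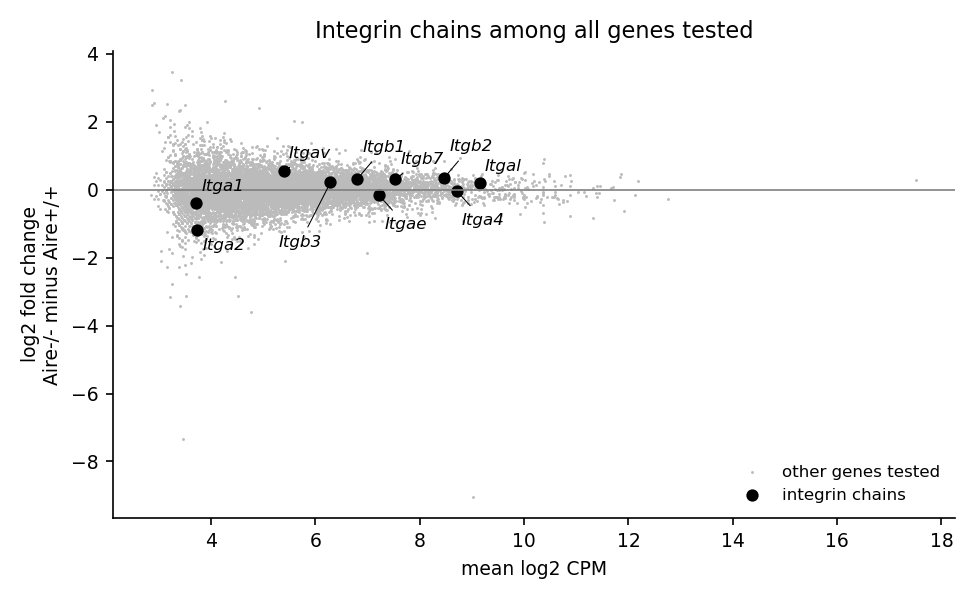
Fitted log2 fold change (Aire-/- minus Aire+/+) against mean log2 CPM for the 9783 genes tested in grey, with the 10 integrin chains in black. The chains lie inside the cloud of genes at their level, and the one farthest from 0, Itga2 at -1.18, is among the sparse genes where the cloud is widest.

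The other integrin chains of the mouse were mostly sparse. Of 17 further chains, 6 were tested and 11 were too low, with at most 15 counts in a library. By edgeR, DESeq2 and limma-voom 0 were called, and 1, Itgb4, had an unadjusted p under 0.05 by edgeR, beside 5.57% of all genes tested. Itgb4, β4 of the laminin receptor, had 77 and 47 counts in Aire-/- libraries versus 32 and 44 counts in Aire+/+ libraries (log2 fold change 0.85, SE 0.36, adjusted p = 0.89, edgeR). Its only partner, Itga6, had 32 and 17 counts in Aire-/- libraries versus 25 and 19 in Aire+/+ libraries (0.31, adjusted p = 0.98). The fibronectin receptor chain Itga5 had 44 and 33 counts in Aire-/- libraries versus 20 and 31 in Aire+/+ libraries (0.74, adjusted p = 0.91), and Itga3, a laminin receptor chain, had 8 and 16 in Aire-/- libraries versus 17 and 9 in Aire+/+ libraries (0.05, adjusted p = 0.99). Per length, the highest of the 6, Itgb4 at a mean of 7.17 CPM per kilobase over the 4 libraries, lay near Itgav at 5.72. Of the chains not tested, Itga7, Itga8, Itga9, Itga10, Itga11 and Itgb2l had from 0 to 10 counts per library.

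The machinery that switches integrins on from inside the cell was expressed in both genotypes. Of 25 listed genes of integrin activation and linkage 24 were tested, 13 above 0 and 11 below 0. Their median log2 fold change was 0.02 beside 0.01 over all genes tested. Here edgeR, DESeq2 and limma-voom called 0. At an unadjusted p under 0.05 edgeR had 2, beside 5.57% of all genes tested. Tln1, talin, which binds the β tail and opens the receptor, stood at 500.3 ± 30.1 CPM in Aire-/- libraries, against 391 ± 30.1 CPM in Aire+/+ libraries (SD over 2 libraries; 0.36 on the log2 scale, SE 0.18, edgeR adjusted p = 0.91). Fermt3, the kindlin of blood cells, had 248 and 290 counts in Aire-/- libraries versus 291 and 238 counts in Aire+/+ libraries (0.19, adjusted p = 0.97), and the GTPase Rap1b was at 152 ± 18.9 CPM in Aire-/- libraries versus 148 ± 16.9 CPM in Aire+/+ libraries (0.04, adjusted p = 0.99). Of the 4 genes with the smallest p, 2 were lower in both Aire-/- libraries and are inhibitors of integrin activation: Sharpin, at 35.9 ± 14.6 CPM in Aire-/- libraries versus 65.7 ± 3.83 CPM in Aire+/+ libraries (-0.87, SE 0.35, adjusted p = 0.89), and Itgb1bp1, which binds the β1 tail, at 41.9 ± 15.4 CPM in Aire-/- libraries versus 71.4 ± 1.82 CPM in Aire+/+ libraries (-0.77, SE 0.33, adjusted p = 0.89). The others were Tln1 and Ilk, the integrin-linked kinase (0.42, adjusted p = 0.93). Of the 24 genes tested, 5 lay wholly higher in Aire-/- libraries and 6 wholly lower. Over all genes tested these shares were 17.1% and 17.3%. Whether integrin activation differed was not tested.

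Ligands of these receptors were also looked for in the sorted cells, in a list that also holds related genes such as Ltbp1. Of its 22 genes 6 were tested, 2 above 0 and 4 below 0 (median -0.50, beside 0.01 over all genes tested). Among them 0 were called by edgeR, DESeq2 or limma-voom. At an unadjusted p under 0.05 edgeR had 2, beside 5.57% of all genes tested. Icam1, a ligand of LFA-1, had 150 and 143 counts in Aire-/- libraries versus 112 and 113 counts in Aire+/+ libraries (log2 fold change 0.54, SE 0.23, adjusted p = 0.89, edgeR), and Icam2, another, 66 and 74 in Aire-/- libraries versus 59 and 81 in Aire+/+ libraries (0.15, adjusted p = 0.98). Tgfb3, a TGF-β whose latent form some αv integrins bind, had 12 and 19 counts in Aire-/- libraries versus 61 and 31 in Aire+/+ libraries (-1.39, SE 0.46, adjusted p = 0.83). Next by p came Ltbp1, a latent TGF-β binding protein (-0.89, adjusted p = 0.95), and Thbs1, thrombospondin (-1.14, adjusted p = 0.97), with 1 and 21 counts in Aire-/- libraries versus 55 and 1 in Aire+/+ libraries. Without Aire+/+ replicate 2, the lower of that pair, Thbs1 was called lower in Aire-/- libraries (-2.10, adjusted p = 0.043, edgeR). The macrophage and monocyte markers Lyz2, Apoe and Cd14 were called lower in the same fit (adjusted p = 1.07e-06, 0.000672 and 0.00354). Lyz2, with 1 and 61 counts in Aire-/- libraries versus 186 and 2 in Aire+/+ libraries, was high and low in the same libraries as Thbs1, and the part of such cells was not tested. Cdh1, E-cadherin, the ligand of αEβ7, had 4 to 9 counts per library, Tgfb1 6 to 10, Madcam1 0 to 2, and Vcam1 0 and 0 counts in Aire-/- libraries versus 6 and 4 in Aire+/+ libraries, all below the filter.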

How the data were processed

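RNA was sequenced by Smart-Seq2 from 500 sorted cells per library. The deposited values are raw read counts in whole numbers, listed by gene symbol with a column per library, per the file headers. TopHat2 2.0.10, Cufflinks 2.2.1 and mm10 are named without role, per the submitters' processing notes. The handling of strand, duplicates and shared reads is not given in the sources used here, nor is the annotation, so overlapping genes are uncertain. Reads carry no molecular identifiers, and the Poisson intervals given for sparse counts cover counting error only.

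Groups came from the sample titles. The main test was edgeR 4.0.16 (R 4.3.3; limma 3.58.1, DESeq2 1.42.0): TMM, filterByExpr with a minimum count of 10 and a minimum total of 15, the quasi-likelihood F test on genotype alone over all 4 libraries, and Benjamini-Hochberg adjustment over the 9783 genes tested, with calls at 0.05. The SE is approximate (size of the log2 fold change over the root of F), and the 95% interval uses the fit's total degrees of freedom. No exact permutation test was run. Lengths, coordinates and overlaps came from GENCODE M21 (GRCm38, which mm10 names), per-length levels dividing CPM by the longest transcript. Steps were tested on simulated data. Python 3.11.15 was used with numpy 2.4.6, pandas 2.3.3, matplotlib 3.10.9 and scipy 1.17.1.

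The members and lists were chosen with earlier results of these data known. Genes named outside the 10 chains are all further integrin chains, up to 4 of smallest p in each list, and a fixed set of adaptors and ligands. Madcam1 and the genes overlapping a chain were named after their values were seen. Alternatives were other size factors, tests, filters, dispersion and threshold, the replicate number as a block, Rn45s left out, each library left out, exon union length and CPM without TMM factors. Exon union length for sums of α partners was added after the data were seen.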

Additional observations from a re-analysis of the deposited data

How the results depend on the processing

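For the 10 chains, 0 were called under each alternative run: limma-voom, the Wald test of DESeq2, its size factors or upper-quartile ones, no filter or a stricter one, a robust fit, an adjusted p of 0.1, the replicate block, Rn45s left out, and each library left out. With all 4 libraries kept, all 90 log2 fold changes (10 chains, 9 alternatives) had the sign reported above. With a library left out, 7 of 40 turned: Itgae ran from -0.50 to 0.0946, Itgal from -0.0248 to 0.45, Itga4 from -0.18 to 0.10, Itgb1 from -0.35 to 0.77 and Itga1 from -1.01 to 0.0341. A genotype left with a single library was there taken to vary as much as the other genotype's pair. Over all genes, 0 were called higher and 2 lower. These counts became 21 and 26 with no filter, 2 and 4 with the replicate block, 0 and 1 with limma-voom, 0 and 3 with DESeq2, and ran from 5 to 21 higher and 6 to 42 lower with a library left out. The labels do not say that a replicate number marks a shared animal or day. Deviations of the same-numbered libraries correlated across genes at -0.078. With 2 libraries per genotype this value cannot decide whether same-numbered libraries share a day or batch. With exon union length, mean levels in CPM per kilobase were 86.1 for Itgal, 3.76 for Itgav, 29.9 for Itga4 and 0.612 for Itga1, and the ratios 0.292 for Itgav to Itgb3 and 0.460 for Itga4 to Itgb7. The mean ratio of summed Itga4 and Itgae to Itgb7 was 0.957 with it, against 1.21. All other per-length values moved by less than 1 SD, though the ratio of Itgal to Itgb2 passed below 1 in every library (mean 0.760, against 0.930). Itga1 and Itga2, at 7 to 23 counts per library, are limited by depth.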

Other observations

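Surface proteins that travel with integrins were a mixed group. Of 12 listed genes 11 were tested, 6 above 0 and 5 below 0 in the Aire-/- libraries. Their median log2 fold change was 0.06, beside 0.01 over all genes tested, with 0 called by edgeR, DESeq2 or limma-voom. At an unadjusted p under 0.05 edgeR had 3, beside 5.57% of all genes tested. Cd226, the receptor DNAM-1 that associates with LFA-1, had 208 and 219 counts in Aire-/- libraries versus 114 and 175 counts in Aire+/+ libraries (log2 fold change 0.71, SE 0.25, adjusted p = 0.89). The tetraspanins Cd81 and Cd9, which organise integrins in the membrane, had 123 and 97, and 5 and 17, counts in Aire-/- libraries, against 203 and 194, and 38 and 30, in Aire+/+ libraries (-0.69, adjusted p = 0.83, and -1.45, adjusted p = 0.89). Plaur, the urokinase receptor, had 100 and 85 counts in Aire-/- libraries versus 253 and 85 counts in Aire+/+ libraries (-0.69, adjusted p = 0.91). Without Aire+/+ replicate 2 its log2 fold change was -1.26. In that fit the macrophage and monocyte markers Cd14, Lyz2 and Apoe, the B cell markers Cd79a, Fcer2a and Faim3 and the natural killer cell marker Gzma were lower too. Their part in Plaur was not tested. Among the 11 tested, Cd226 lay wholly higher in Aire-/- libraries, and Cd81 and Cd9 wholly lower. Over all genes tested, 34.4% had groups that did not overlap (17.1% higher, 17.3% lower). B cells carry Cd81 too, and all 12 B cell markers had a log2 fold change below 0 (median -0.50). The ratio of the summed counts of Ms4a1, Cd79a and Cd79b to those of Cd3d, Cd3e and Cd3g was 1.48 and 0.999 in Aire-/- libraries versus 3.10 and 1.22 in Aire+/+ libraries, and its part in the integrin and tetraspanin values was not tested.

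Markers of other cells that carry some of these integrins differed in level between lists and libraries. The 7 fibroblast and smooth muscle markers summed to 36.5 and 19.8 CPM in Aire-/- libraries versus 24.2 and 46.2 CPM in Aire+/+ libraries, the 7 mast cell and basophil markers to 18.3 and 17.9 CPM in Aire-/- libraries versus 25.1 and 18.8 CPM in Aire+/+ libraries, and the 7 lung epithelial markers to 16.4 and 16.0 CPM in Aire-/- libraries versus 27.5 and 13.7 CPM in Aire+/+ libraries. The 6 endothelial markers summed to 122 and 118 CPM in Aire-/- libraries versus 152 and 202 CPM in Aire+/+ libraries. Pecam1, which lymphocytes also express, gave 124 and 110 of those counts in Aire-/- libraries versus 171 and 146 in Aire+/+ libraries. The 5 others summed to 8.22 and 14.1 CPM in Aire-/- libraries versus 13.7 and 77.0 CPM in Aire+/+ libraries, with Cldn5 at 3 and 3 counts in Aire-/- libraries versus 6 and 50 in Aire+/+ libraries and Kdr at 1 and 4 in Aire-/- libraries versus 1 and 23 in Aire+/+ libraries. Aire+/+ replicate 2 thus stood apart in these genes. Cldn5 was below the filter, and was called lower with no filter (-3.03, adjusted p = 0.0081) and without Aire+/+ replicate 1 (-3.90, adjusted p = 0.00033). The 8 dendritic cell markers, which include Itgax, summed to 73.1 and 48.1 CPM in Aire-/- libraries versus 27.5 and 42.8 CPM in Aire+/+ libraries. The 12 macrophage and monocyte markers found summed to 947 and 1215 CPM in Aire-/- libraries versus 1107 and 915 CPM in Aire+/+ libraries, most of it Ccr2, which T cells also carry, with 906 and 1121 counts in Aire-/- libraries versus 789 and 907 in Aire+/+ libraries. Other members ran differently, and not all in the same direction. Emr1 had 15 and 3 counts in Aire-/- libraries versus 2 and 6 in Aire+/+ libraries. Fcgr1 had 5 and 0 counts in Aire-/- libraries versus 4 and 2 in Aire+/+ libraries. Apoe had 100 and 89 counts in Aire-/- libraries versus 307 and 105 in Aire+/+ libraries, Cd14 0 and 0 in Aire-/- libraries versus 32 and 11 in Aire+/+ libraries, Mrc1 2 and 3 in Aire-/- libraries versus 13 and 12 in Aire+/+ libraries, and C1qa 0 to 1 per library. With no filter Cd14 (adjusted p = 8.29e-05) and Lyz2 (adjusted p = 0.047) were called lower in Aire-/- libraries. Lyz2 was called lower without Aire-/- replicate 2 (-6.24) and higher without Aire+/+ replicate 1 (4.00), so its direction rested on single libraries.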
